A study of Homo sapiens with 6 samples.

Results

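The 8 genes that encode the subunits of the cytosolic chaperonin CCT, also called TRiC, were examined: TCP1, CCT2, CCT3, CCT4, CCT5, CCT6A, CCT7 and CCT8. They were chosen as the named subunits of the complex and found by gene symbol, with earlier results of these data known. All 8 were found among the 23152 genes of the count table, and all 8 were among the 14467 genes that passed the filter on low counts. RNA had been sequenced from T24 cells, an established human bladder cancer line, in 3 samples labelled with the empty vector and 3 labelled as overexpressing RNF112 (oeRNF112), an E3 ubiquitin ligase of the RING finger family. Both groups share the cell line and medium, and the labels give no time point. The treatment text describes an siRNA transfection, which goes against the overexpression label, and how RNF112 was introduced is not stated. The labels do not say whether the 3 samples of a group came from separate cultures, so the p-values measure only the spread between these samples, which may be technical. The study sequenced these cells to look for genes and pathways that change downstream of RNF112.

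CCT is a barrel made of a pair of stacked rings, and each ring holds 1 copy of each of the 8 related subunits. ATP hydrolysis closes the barrel over an unfolded protein, which then folds inside. Actin and tubulin are its best known clients, and many proteins with WD40 repeats also need it. Prefoldin delivers actin and tubulin chains to the barrel, and phosducin-like proteins assist it with some clients. Because every ring needs each subunit once, the balance among the 8 mRNAs is of interest beside their total.

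The total counts were between 40029547 and 41259569 per sample, so that each subunit was measured with between 9323 and 22253 counts in every sample and counting error was smaller than the spread between samples. The RNF112 gene itself was counted 27, 19 and 24 times with vector and 29753, 36963 and 31712 times with oeRNF112, where reads of the construct may be included (log2 fold change 10.37, edgeR adjusted p = 7.4e-10). The cells carried the keratins of a bladder epithelial line (KRT7, KRT8, KRT18 and KRT19 at 96.3 RPKM or more in every sample), while EPCAM, the urothelial regulator GATA3 and the umbrella cell gene UPK2 reached at most 2.92, 1.25 and 0.186 RPKM. The mesenchymal markers VIM, CDH2 and FN1 were also present, at 2089 to 2199 summed RPKM in vector and 1770 to 2095 in oeRNF112. Of all these markers, KRT7, KRT18, CDH2 and the leukocyte gene LAPTM5 were called lower in oeRNF112 and EPCAM higher by edgeR. The summed RPKM of 6 leukocyte markers was 4.08 to 4.66 in vector and 2.57 to 3.70 in oeRNF112, with CD3E and TYROBP at no more than 4 and 2 counts in any sample. For 4 fibroblast markers it was 1.08 to 1.54 and 1.68 to 1.76, with DCN at no more than 1 count, and for 3 endothelial markers at most 0.0952. The part of these marker signals in the results was not tested. Vector replicate 2 stood apart from the other vector samples in the chaperonin genes and had the lowest normalized count of the vector group for all 8, so results are also given without it. It was not apart in these genes alone. A chi-square measure of the difference between libraries, per gene, was 59.5 for vector replicates 2 and 3. It was 28.6 for replicates 1 and 2 and 17.8 for 1 and 3. For oeRNF112 replicates 2 and 3 it was 55.0.

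On the human reference genome (GRCh38.p14, RefSeq), the 8 genes lie on 7 chromosomes. TCP1, the alpha subunit, is at chr6:159778498-159789602 and CCT2, beta, at chr12:69585459-69601570. CCT3, gamma, is at chr1:156308968-156338292 and CCT4, delta, at chr2:61868085-61888671. CCT5, epsilon, is at chr5:10249921-10266412, CCT6A, zeta, at chr7:56051765-56063989, CCT7, eta, at chr2:73234308-73253005 and CCT8, theta, at chr21:29056326-29073648. The coding sequences of their principal GENCODE transcripts are of nearly equal length, from 1593 bases in CCT6A to 1668 in TCP1. RefSeq also lists 17 pseudogene copies of the family, 5 of them of CCT6A, and none has a row in the table used here, so reads that fit a copy as well as its parent are an uncertainty for every subunit but CCT2, for which no copy was found by symbol.

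Promoter windows, from 250 bases before to 50 after a RefSeq start site, were found for 7 of the 8 genes, with CCT6A the exception. The windows of 4 genes are shown because these subunits differed most in their share of the total chaperonin mRNA, TCP1 and CCT8 with a higher share in oeRNF112 and CCT7 and CCT4 with a lower one. Each is written 5′ to 3′ on the strand of its gene, with capitals for any match to the motifs described after them.
TCP1 (chr6:159789553-159789852, minus strand): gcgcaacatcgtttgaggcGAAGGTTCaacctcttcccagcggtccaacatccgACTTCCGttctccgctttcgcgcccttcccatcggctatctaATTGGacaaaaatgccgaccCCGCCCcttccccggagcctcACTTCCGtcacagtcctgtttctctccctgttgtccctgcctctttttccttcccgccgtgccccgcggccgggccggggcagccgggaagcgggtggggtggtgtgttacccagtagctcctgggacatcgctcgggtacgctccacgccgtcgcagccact
CCT8 (chr21:29073599-29073898, minus strand): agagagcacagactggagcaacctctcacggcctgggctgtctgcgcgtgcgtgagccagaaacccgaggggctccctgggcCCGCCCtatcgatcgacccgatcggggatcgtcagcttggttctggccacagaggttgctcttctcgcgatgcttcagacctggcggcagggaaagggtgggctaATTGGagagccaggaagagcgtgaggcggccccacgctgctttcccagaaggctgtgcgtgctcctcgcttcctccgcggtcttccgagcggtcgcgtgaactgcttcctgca
CCT7 (chr2:73234058-73234357, plus strand): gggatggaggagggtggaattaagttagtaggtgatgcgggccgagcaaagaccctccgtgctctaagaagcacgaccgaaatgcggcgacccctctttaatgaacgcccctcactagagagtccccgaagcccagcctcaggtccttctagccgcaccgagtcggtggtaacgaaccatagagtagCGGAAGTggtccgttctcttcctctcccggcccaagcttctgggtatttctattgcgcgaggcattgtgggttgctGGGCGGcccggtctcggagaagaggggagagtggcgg
CCT4 (chr2:61888607-61888906, minus strand): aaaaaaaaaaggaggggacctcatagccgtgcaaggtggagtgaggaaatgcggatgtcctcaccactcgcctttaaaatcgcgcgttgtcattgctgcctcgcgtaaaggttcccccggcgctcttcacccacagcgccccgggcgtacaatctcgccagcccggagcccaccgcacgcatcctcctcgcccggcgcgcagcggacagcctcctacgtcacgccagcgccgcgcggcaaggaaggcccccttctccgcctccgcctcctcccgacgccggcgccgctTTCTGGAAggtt

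The motifs were searched on both strands. The E-box CACGTG was in none of the 9 windows of the 7 genes, against 7.26% of the 35116 RefSeq windows of this length. Paired heat shock units were searched in both orders. GAANNTTC was found for 2 genes, TCP1 and CCT2 (6.77% of all windows), and TTCNNGAA for 1, CCT4 (7.74%). The CCT2 match was in its window at chr12:69585639-69585938, which lies inside the gene, and not in the window at the gene start. The percentages count windows and not genes, and CCT2 and CCT4 each had more than 1 window. The ETS-type motif ACTTCCG was found for 3 genes, TCP1, CCT7 and CCT2 (6.83% of all windows). CCAAT was found for 4 genes, TCP1, CCT2, CCT3 and CCT8 (34.6%), and the GC box GGGCGG for 5, TCP1, CCT2, CCT3, CCT7 and CCT8 (45% of all windows). None of these motifs was in the listed CCT5 window. That window (chr5:10250287-10250586) lies inside the gene, past the CCT5 start at 10249921, so the promoter at that start was not searched. None of the matches overlapped another in the 4 windows shown. The higher-share and the lower-share genes were not separated by the GC box or the ETS-type motif, since TCP1 and CCT7 hold both. Of the 4 windows shown, CCAAT was in those of TCP1 and CCT8 and not in those of CCT7 and CCT4. It was also in the window of CCT3, a lower-share gene. The other CCT4 window (chr2:61888622-61888921), which overlaps the one shown, held no match. The part of these motifs in the shares was not tested.

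All 8 subunits were abundant mRNAs, and their order was the same in every one of the 6 samples. By the deposited RPKM, which divides a gene's reads by its length and the library total, CCT7 was the most abundant at 256 ± 18.8 in vector (mean ± SD, n = 3), followed by CCT3 at 225 ± 15.1 and CCT4 at 202 ± 12.4. CCT6A and CCT2 came next at 179 ± 6.67 and 174 ± 10.1, and CCT8 stood at 146 ± 11.4. CCT5 and TCP1 were the lowest at 127 ± 8.08 and 103 ± 4.205. In vector, the ranges of CCT7 and CCT3, CCT3 and CCT4, CCT6A and CCT2, and CCT8 and CCT5 overlapped, although the first of each pair was above the second within all 3 samples. In oeRNF112 the order was kept, and neighbours overlapped except CCT3 with CCT4 and CCT8 with CCT5. CCT5 and TCP1, separate in vector, were there at 121 ± 2.59 and 118 ± 2.41.

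**Figure D1:**
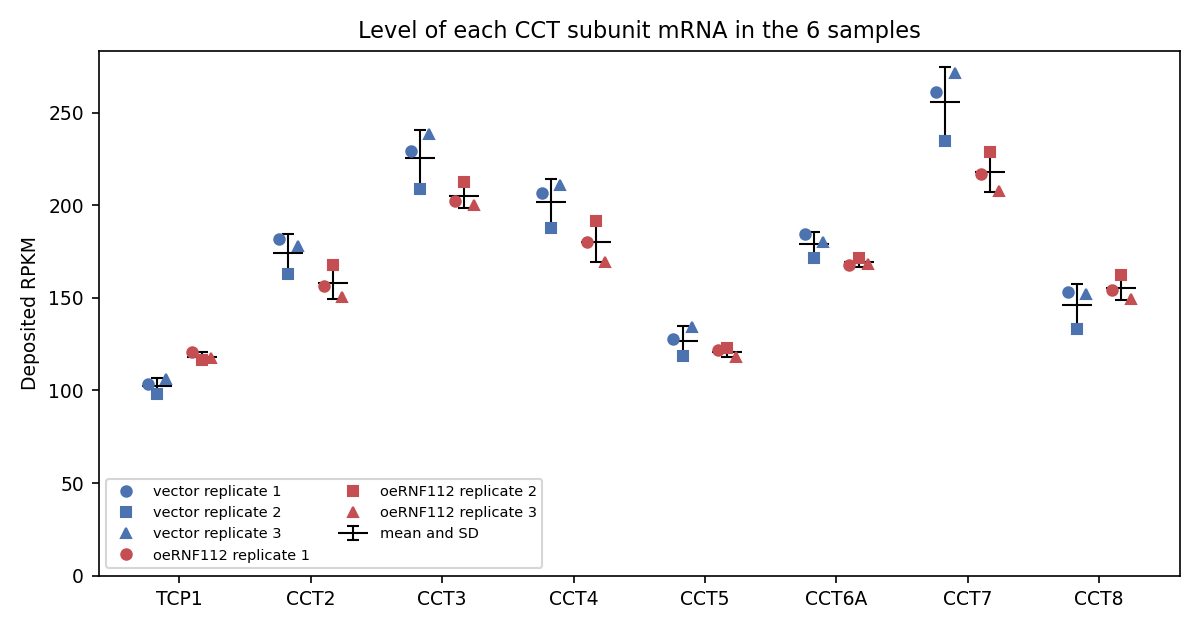
Deposited RPKM of the 8 CCT subunit mRNAs in each of the 6 samples (vertical axis), with vector samples in blue and oeRNF112 samples in red, symbols for the replicate and bars for the mean and SD of 3 samples. CCT7 is the highest and TCP1 the lowest in every sample, and TCP1 is the subunit for which all oeRNF112 samples lie above all vector samples.

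The order depends in part on the gene length used. The length implied by the deposited counts and RPKM was 3798 bases for CCT5 and between 1977 and 2584 bases for the other 7. With the length of the principal GENCODE transcript, CCT7 stayed highest and TCP1 lowest in both groups, while CCT2, CCT6A and CCT8 changed places. With merged GENCODE exons, CCT4 was first and CCT7 second. Both lengths were chosen after the data had been seen, and TCP1 was lowest with each.

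In oeRNF112, 1 of the 8 mRNAs differed from vector at an adjusted p under 0.05, by the edgeR test. At an unadjusted p under 0.05 there were 4, all lower (CCT2, CCT3, CCT4 and CCT7), beside 33.1% of all genes tested, 16% as lower. CCT7 was lower, at 0.798 of its vector level, while CCT2, CCT3 and CCT4 had levels between 0.838 and 0.851 of vector and did not pass the test. CCT5 and CCT6A were at 0.892 and 0.886, CCT8 at 0.996 and TCP1 at 1.08 of vector, none of them past the threshold. Across all genes tested, 18.1% were called, 8.14% as lower and 9.97% as higher in oeRNF112, so 1 lower call among 8 subunits is near the background. The median log2 fold change of the 8 subunits was -0.20, beside 0.0027 for all genes tested. Abundant genes as a whole sat below 0: the 626 genes at least as abundant as TCP1 had a median of -0.13, with 117 called lower and 46 higher.

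CCT7, the eta subunit, had 21948, 19341 and 22253 counts in vector and 17688, 18863 and 17049 in oeRNF112. After normalization these were 555, 484 and 577 CPM (the count scaled to a library of fixed size) against 427, 459 and 403, and the groups did not overlap. The log2 fold change was -0.33 (standard error 0.0975, 95% interval -0.54 to -0.11, adjusted p = 0.0443 by the quasi-likelihood test of edgeR). The difference was below 0 under all 16 alternatives to this fit but was called in 6 of them, with adjusted p between 0.0149 and 0.217. It was lost with upper-quartile factors, library totals and a replicate block (adjusted p = 0.0743, 0.0904 and 0.217 from edgeR), with limma on RPKM (0.101 to 0.106), and without vector replicate 1, vector replicate 3, oeRNF112 replicate 1 or oeRNF112 replicate 3 (adjusted p = 0.169, 0.117, 0.147 and 0.141 from edgeR).

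CCT4, the delta subunit, had 516, 454 and 527 CPM in vector and 416, 451 and 386 in oeRNF112. CCT3, gamma, had 473, 418 and 492 CPM against 386, 414 and 377. For both genes the highest oeRNF112 sample, replicate 2, lay just under vector replicate 2, so the groups touched without overlapping. Their log2 fold changes were -0.26 (95% interval -0.47 to -0.04, adjusted p = 0.0957 from edgeR) and -0.23 (-0.44 to -0.03, adjusted p = 0.110). CCT2, beta, was at -0.23 (-0.44 to -0.02, adjusted p = 0.114 from the same test), with 335 to 386 CPM in vector and 292 to 337 in oeRNF112, which overlapped. Without vector replicate 2, 3 subunits were called, all lower, namely CCT7 at -0.40, CCT4 at -0.32 and CCT3 at -0.30 (adjusted p = 0.0149, 0.0404 and 0.0442 from edgeR). The share of all genes called lower in that fit was 10.5%, and 12.5% were higher. Because vector replicate 2 was singled out for its low counts of these same genes, the fit without it gives no separate support. With any other sample left out, at most 1 subunit was called (CCT7, without oeRNF112 replicate 2).

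CCT5 and CCT6A, the epsilon and zeta subunits, had smaller differences. CCT6A had 449 to 498 CPM in vector and 415 to 438 in oeRNF112, a log2 fold change of -0.17 (95% interval -0.36 to 0.01, adjusted p = 0.175 from edgeR). CCT5 had 455 to 534 CPM against 427 to 460, a log2 fold change of -0.16 (-0.37 to 0.04, adjusted p = 0.233). The groups did not overlap for CCT6A and overlapped for CCT5.

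TCP1 and CCT8, the alpha and theta subunits, stood apart from the other 6. TCP1 had 254, 233 and 261 CPM in vector and 275, 270 and 264 in oeRNF112, and all 3 oeRNF112 samples lay above the vector samples by a narrow margin. Its log2 fold change was 0.11 (95% interval -0.07 to 0.29, adjusted p = 0.374 from edgeR) and was above 0 under all 16 alternatives, from 0.06 to 0.21, without a call in any. CCT8 had 345, 291 and 343 CPM in vector and 322, 346 and 308 in oeRNF112, and the groups overlapped. Its log2 fold change of -0.01 (95% interval -0.22 to 0.21, adjusted p = 0.977 from the same test) lay on either side of 0 depending on the scaling, up to 0.09 with library totals. For neither gene does the test show that the level was the same in both groups.

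**Figure D2:**
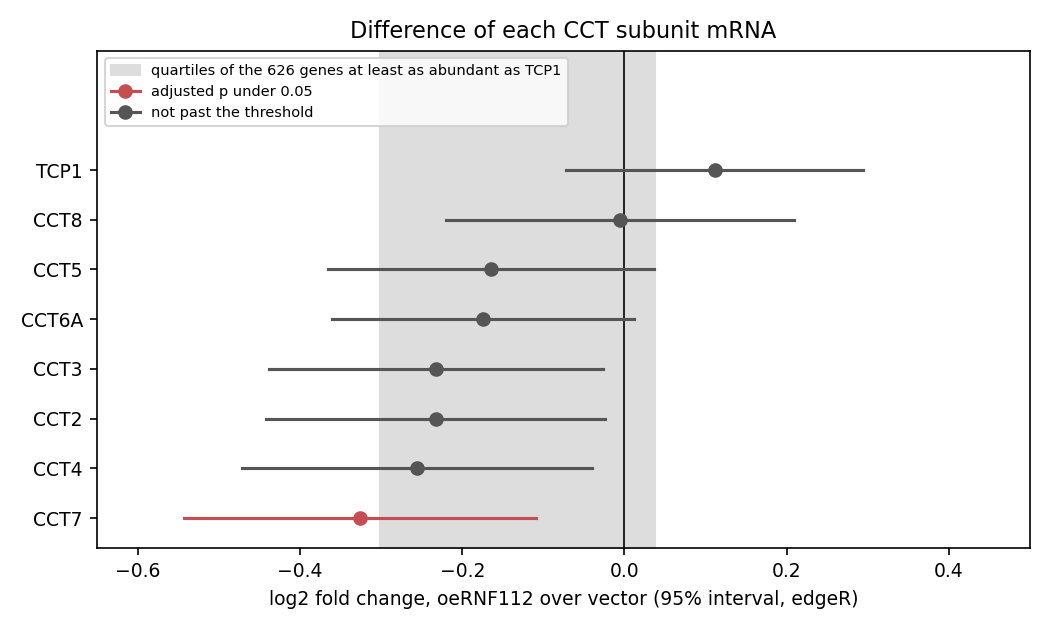
log2 fold change of each CCT subunit mRNA, oeRNF112 over vector (horizontal axis), with its 95% interval from edgeR, in red where the adjusted p was under 0.05 and grey otherwise, over the quartile range (grey band) of the 626 genes at least as abundant as TCP1. CCT7 is the only red interval, at -0.33, and TCP1 is the only subunit fitted above 0, at 0.11.

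Counted by overlap, vector and oeRNF112 CPM were fully separate for 4 subunits that were lower (CCT3, CCT4, CCT6A and CCT7) and for 1 that was higher (TCP1). Among all genes tested, the groups did not overlap for 36.8%, 17.9% lower and 18.9% higher in oeRNF112. Among the 626 genes at least as abundant as TCP1, the lower share was 33.2% and the higher 12.6%.

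As a total over the complex, the summed normalized count of the 8 genes was 3533, 3119 and 3600 CPM in vector and 2999, 3175 and 2871 in oeRNF112. Vector replicate 2 lay below oeRNF112 replicate 2, so the groups overlapped, and the total was not tested. Of all counts in a library, the 8 genes took 0.308% to 0.345% with vector and 0.301% to 0.322% with oeRNF112.

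The balance among the subunits was measured as the share of each in the summed RPKM of the 8 within its own sample. This share does not depend on how the libraries are scaled against each other. It does depend on the gene lengths, and only the deposited lengths were used for it. TCP1 took 7.16%, 7.45% and 7.21% of the sum in vector and 9.16%, 8.47% and 9.18% in oeRNF112. The CCT8 share was 10.6%, 10.1% and 10.3% in vector and 11.7%, 11.8% and 11.7% in oeRNF112. For both, every oeRNF112 sample was above every vector sample, and vector replicate 2 lay with the other vector samples.

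CCT7 took the largest share and went the other way, with 18.1%, 17.9% and 18.4% in vector against 16.4%, 16.7% and 16.2% in oeRNF112. The CCT4 share was 14.29% ± 0.034 in vector and 13.6% ± 0.365 in oeRNF112, and the CCT3 share 16.0% ± 0.198 and 15.5% ± 0.162 (mean ± SD, n = 3 each). The groups did not overlap for these 3 subunits either. The shares of CCT2, CCT5 and CCT6A overlapped between the groups.

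For the 5 shares without overlap, a two-sided exact permutation test gave p = 0.10, which is the smallest that 3 samples against 3 can give, and 0.16 after adjustment over the 8 shares. The limit is that of this test, and no model-based test of the shares was run. How often shares within other sets of genes separate between the groups was not measured, so 5 of 8 is not shown to be unusual. The normalized counts of single genes did not overlap for 36.8% of all genes tested. The mean difference in share was 1.66 percentage points for TCP1 and 1.38 for CCT8 (oeRNF112 minus vector), and -1.68 for CCT7, -0.69 for CCT4 and -0.50 for CCT3. The shares add to a fixed total, so that they are not independent of each other.

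**Figure D3:**
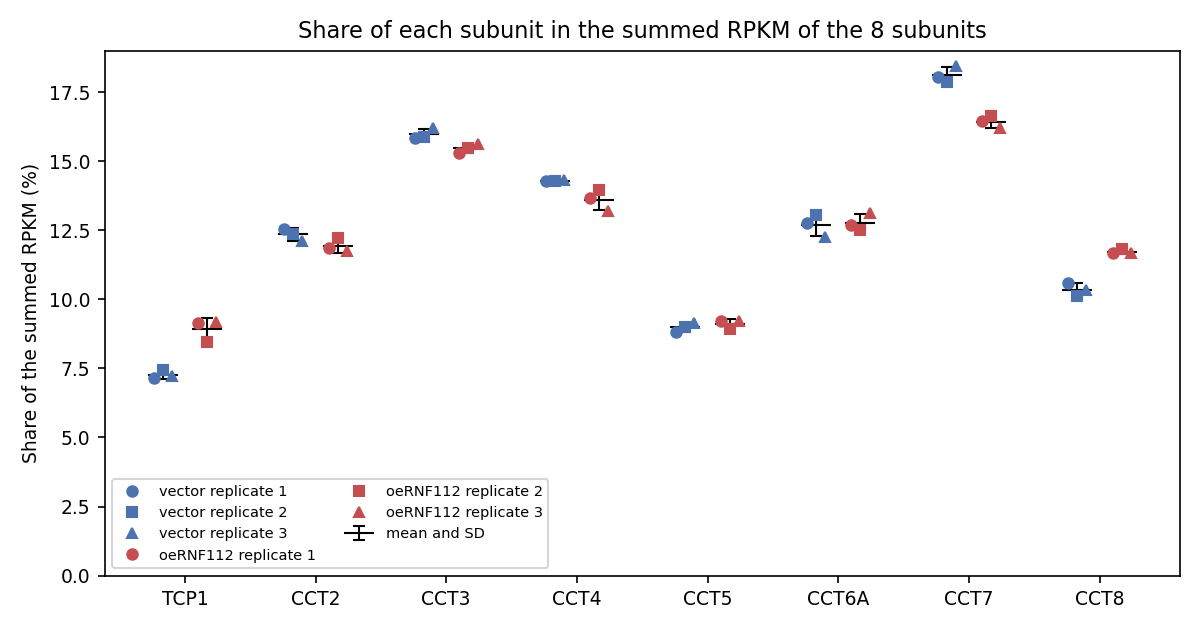
Share of each subunit in the summed RPKM of the 8 subunits (vertical axis, percent) in each sample, with vector in blue and oeRNF112 in red and bars for the mean and SD of 3 samples. The TCP1 and CCT8 shares are higher in all 3 oeRNF112 samples than in all vector samples, and the CCT7, CCT4 and CCT3 shares are lower.

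The levels of the 8 subunits spanned a narrower range in oeRNF112. The highest subunit, CCT7, had 2.52, 2.40 and 2.56 times the RPKM of the lowest, TCP1, in vector and 1.80, 1.97 and 1.77 times in oeRNF112. The coefficient of variation over the 8 subunits was 28.8%, 28.2% and 29.7% in vector and 20.9%, 22.9% and 20.9% in oeRNF112. The ratio of TCP1 to CCT7 was 0.402 ± 0.0136 in vector and 0.544 ± 0.0311 in oeRNF112, or 1.36 times the vector value (n = 3 each, two-sided exact permutation p = 0.10, 0.117 adjusted over the ratios to 7 subunits). Against CCT8, the TCP1 ratio overlapped between the groups, at 0.704 ± 0.0303 and 0.762 ± 0.0401 (exact permutation p = 0.20). The range depends on the gene length. With the principal GENCODE transcript, the highest group mean was 2.82 times the lowest in vector and 2.08 times in oeRNF112. With merged GENCODE exons, where CCT4 was the highest, these were 3.48 and 2.70. The range and the ratios were not set against those of other genes.

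Neighbouring genes were read beside the subunits, since some share their ends. TCP1 overlaps ACAT2, an acetyl-CoA acetyltransferase of the sterol pathway on the opposite strand, over 615 bases at its 3′ end. ACAT2 fell in oeRNF112, with 2822, 2575 and 2961 counts against 2275, 2394 and 2207 (-0.36 on the log2 scale, edgeR adjusted p = 0.0284, called in 9 of 16 alternatives), while TCP1 was at 0.11. MRPL18, a mitochondrial ribosomal protein gene that starts 209 bases from TCP1 on the other strand, was at -0.04 (adjusted p = 0.844). The library kit keeps the strand, but the strand setting of the counting is not given in the sources used here, so reads in the overlap may have been credited to either gene or to neither.

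COMMD1 overlaps the first 281 bases of CCT4 on the opposite strand and was at -0.19 (adjusted p = 0.356 from edgeR). TSACC overlaps CCT3 by 979 bases but had at most 4 counts. On either side of CCT6A, the serine synthesis enzyme PSPH, 320 bases away, was at -0.23 (adjusted p = 0.122) and SUMF2, 296 bases away, fell by 0.44 (log2, edgeR adjusted p = 0.00989, called in 13 of 16 alternatives). ATPSCKMT, 32 bases from CCT5, fell by 0.43 (log2, adjusted p = 0.0298, called in 7 of 16), with 542, 477 and 488 counts in vector and 356, 407 and 416 in oeRNF112.

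The helpers of the chaperonin were read against the 18.1% of all genes called. None of the 6 prefoldin genes and none of the 4 tested phosducin-like and other cofactors passed the threshold in edgeR, at median log2 fold changes of -0.10 and -0.03. In each list 1 gene had an unadjusted p under 0.05 in edgeR, beside 33.1% of all genes tested. DESeq2 called 0 prefoldin genes and 1 cofactor, PDCL3, beside 3108 of the 23152 genes it fitted (1643 higher, 1465 lower). PDCL3 was at -0.40 in edgeR (adjusted p = 0.0666) and is named for its DESeq2 call, after its value was seen. PFDN5 had 7482, 6364 and 8060 counts in vector and 5780, 7236 and 5364 in oeRNF112, a log2 fold change of -0.33 (adjusted p = 0.121), and VBP1 was at -0.14. TXNDC9 and PDCD5, which bind the chaperonin, were at -0.08 and 0.23. Of the 6 cofactors that take tubulin onward after CCT, 1 was lower in edgeR and 2 in DESeq2, which also called TBCE (-0.30, adjusted p = 0.0602 in edgeR, likewise named after its value was seen). TBCD fell from 4228, 4290 and 4489 counts to 3824, 3525 and 3742, or -0.31 in log2 (± 0.0826 SE, edgeR adjusted p = 0.0287, called in 6 of 16 alternatives).

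Most of the tested clients of CCT were not called. Among all genes tested, 18.1% were called, 8.14% as lower and 9.97% as higher. Of 12 tubulin genes, 1 was lower (8.33%) and 1 higher. TUBA1B, the most abundant alpha tubulin here, fell by 0.45 in log2 (94439, 84671 and 102917 counts against 71861, 79152 and 66776, adjusted p = 0.0253 from edgeR), and TUBB4A, a scarce beta tubulin, rose by 0.65 (from 123 to 156 counts with vector, from 195 to 251 with oeRNF112, adjusted p = 0.026). Of 7 actins and actin-related genes tested, 3 were lower (42.9%) and 0 higher. ACTR1B, an actin-related protein of dynactin, was at -0.50 (edgeR adjusted p = 0.00674), ACTA2 at -0.55 (adjusted p = 0.0233) and the cytoplasmic actin ACTG1 at -0.35 (adjusted p = 0.0463). ACTG1 was called in 5 of 16 alternatives, TUBA1B in 8, ACTA2 in 11, TUBB4A in 12 and ACTR1B in 15. Actins and tubulins are families of similar sequence, and how reads that fit several members were counted is not given in the sources used here.

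Among 16 WD40 and other clients, 2 were lower (12.5%) and 1 was higher. PLK1, a mitotic kinase, fell from 6516, 7037 and 7174 counts to 5438, 5236 and 5209 (log2 fold change -0.46 ± 0.0834 SE, edgeR adjusted p = 0.00528, called in 15 of 16 alternatives). MLST8, a WD40 subunit of the mTOR complexes, was at -0.41 (adjusted p = 0.0308, called in 7 of 16) and CCNE1, cyclin E1, at 0.43 (adjusted p = 0.0357, called in 10 of 16). Of 5 other chaperonin genes tested, 0 were called by edgeR or DESeq2. In edgeR 0 had an unadjusted p under 0.05, beside 33.1% of all genes tested. HSPD1, the mitochondrial chaperonin, was at -0.08 and MKKS, a related protein of the BBS complex, at -0.21. CCT6B, the testis form of zeta, had between 7 and 11 counts in every sample and was not tested.

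Over the 7 helper and client lists together, 9 of 56 genes tested were called (16.1%), 7 lower and 2 higher, beside 18.1% of all genes tested. Their median log2 fold change was -0.13. When libraries were scaled by their totals alone, the medians of the cofactor list and of the other chaperonins were above 0, at 0.0675 and 0.0166, and the prefoldin median was -0.00604.

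Across these fits the direction of 7 of the 8 subunits did not turn. CCT2, CCT3, CCT4, CCT5, CCT6A and CCT7 were below 0 and TCP1 above 0 under all 16 alternatives, and CCT8 was below 0 in 6 of them. The fitted size moved with the scaling and with vector replicate 2. The median of the 8 was -0.26 without that sample and -0.11 with library totals, which also raised the median of all genes tested to 0.0962.

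**Figure D4:**
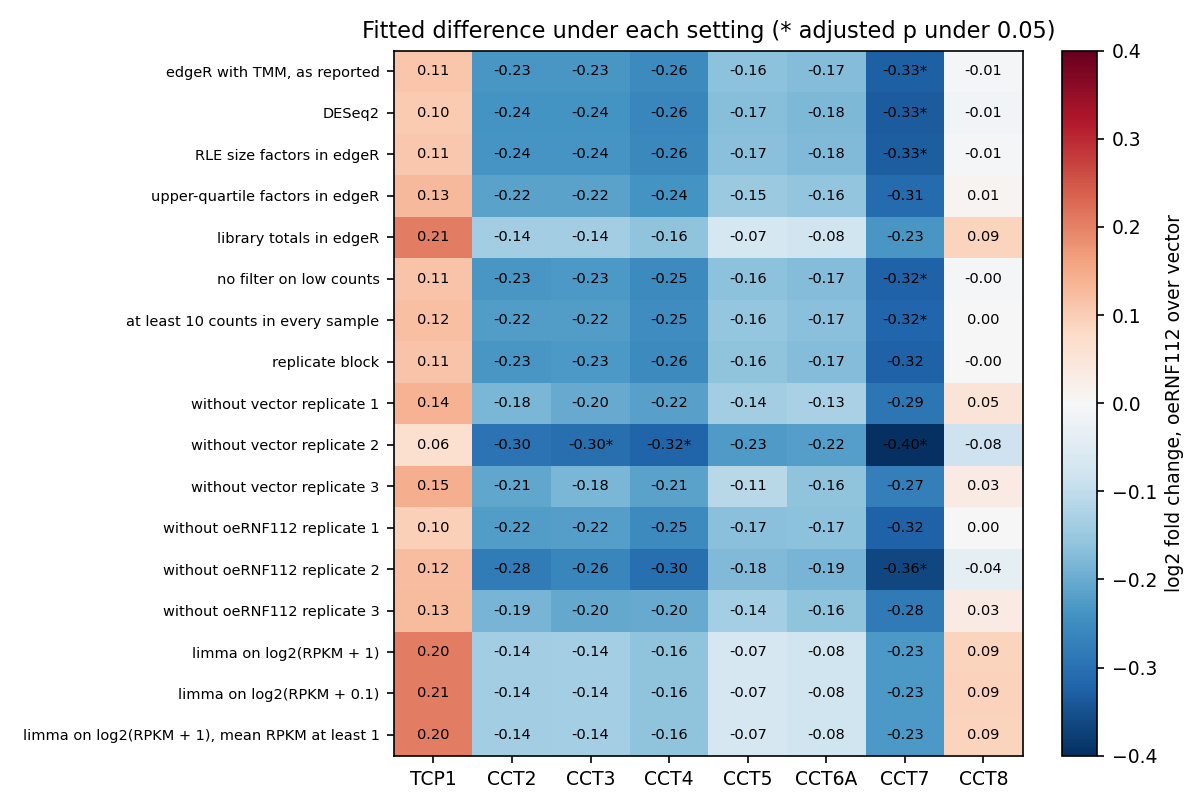
Fitted log2 fold change of each CCT subunit (columns) under the reported fit and 16 alternatives (rows), with an asterisk where the adjusted p was under 0.05 and colour from blue for lower to red for higher in oeRNF112. The CCT7 column holds 7 asterisks, and CCT3 and CCT4 have 1 each, without vector replicate 2.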

How the data were processed

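For each of the 6 samples the authors deposited raw read counts by gene symbol and RPKM values. Per the labels, the libraries were stranded mRNA libraries, and the submitters' processing notes name Trimmomatic 0.36, featureCounts, Subread 1.5.1 and the build GRCh38. The aligner, annotation and strand setting are not given in the sources used here. The protocol text also describes siRNA transfection, in conflict with the labels. A single gene length related the deposited count and RPKM in all samples for 20637 of 20637 genes checked (within 0.1%).

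Counts were analysed in R 4.3.3 with edgeR 4.0.16 (filter on low counts, TMM factors, quasi-likelihood test, Benjamini-Hochberg adjustment over 14467 genes, threshold 0.05). The standard error is the log2 fold change over the root of F. Alternatives used DESeq2 1.42.0, limma 3.58.1 on log2(RPKM + 1) or log2(RPKM + 0.1), other size factors and filters, a replicate block, and each sample left out. Fits were tested on simulated data. RefSeq supplied positions and promoters, GENCODE transcript lengths.

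Members and lists were chosen with earlier results of these data known. The text names RNF112, the 8 subunits, of each helper or client list up to 5 called genes or, with none called, the 2 with the highest mean count, genes within 1000 bases of a subunit, and the 5 genes with the most similar profile. The marker genes, PDCL3, TBCE, TSACC and CCT6B were added to show their values.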

Additional observations from a re-analysis of the deposited data

How the results depend on the processing

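The count of subunits called lower was 1, or 0 with upper-quartile factors, library totals, the replicate block and the limma fits on RPKM, and from 0 to 3 when each sample was left out. The median of the subunits was -0.109 with library totals and -0.1075, -0.108 and -0.1075 with limma on log2(RPKM + 1), on log2(RPKM + 0.1) and with a mean RPKM of at least 1. All genes called lower, 1178 in the reported fit, were 659 with library totals and 646, 652 and 603 with the same limma fits. With library totals 75.4% of the calls were higher, against 55%. With the replicate block 876 genes were called (618 higher, 258 lower). Same-numbered samples had deviations correlated at -0.116, -0.363 and -0.296, and no pairing was assumed. With each sample left out, all calls lay between 1061 (vector replicate 1 left out) and 3387 (vector replicate 2 left out), higher calls from 702 to 1841 and lower calls from 359 to 1546.

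CCT8 was above 0 with upper-quartile factors (0.0116), library totals (0.0891), at least 10 counts in every sample (0.00278) and the 3 limma fits (0.0905, 0.0910 and 0.0905), and from -0.0842 to 0.0503 when each sample was left out. In the order of library totals and the 3 limma fits, TXNDC9 was at 0.0189, 0.0148, 0.0152 and 0.0148, HSPD1 at 0.0166, 0.0174, 0.01745 and 0.0174, and MRPL18 at 0.0548, 0.0581, 0.0593 and 0.0581. With each sample left out, TXNDC9 lay from -0.1661 to 0.0149 and MRPL18 from -0.1425 to 0.0563. The cause of these changes was not tested. Of 560 values for 35 named genes, 41 lost the call outside the fits that left out a sample and 43 within them, and 0 and 7 gained it.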

Other observations

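The 8 subunits did not share one profile over the 6 samples. The normalized log2 level of CCT2, CCT3, CCT4, CCT5, CCT6A and CCT7 had a Pearson correlation between 0.944 and 0.979 with the mean of the other 7 subunits, while CCT8 was at 0.636 and TCP1 at -0.20. These are descriptions over 6 samples that share libraries, scaling and group. Among 11557 other genes with a mean count of at least 100, the profiles most like the mean of the 8 subunits were those of CBX8, a Polycomb protein (r = 0.998), ELP5, an Elongator subunit (0.998), FKBP3, a prolyl isomerase (0.996), PSMB1, a proteasome subunit (0.996) and CWF19L1 (0.996). Like the subunits, each was lower in vector replicate 2 than in the other vector samples. These genes were picked for their likeness to this profile. Their high r and this shared low value follow from that choice and are no evidence of a link. PSMB1 had 5449, 4351 and 5500 counts in vector and 4453, 4862 and 4078 in oeRNF112, a log2 fold change of -0.27 (adjusted p = 0.145 from edgeR). None of the 5 was called in this fit, and ELP5, FKBP3 and PSMB1 were each called in 1 of 16 alternatives.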
